A study of Mus musculus with 2 samples.

Results

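Small nucleolar RNAs (snoRNAs) and small Cajal body RNAs (scaRNAs) were examined in cultured FAPs (fibro-adipogenic progenitors), muscle-resident mesenchymal cells with the capacity to form adipocytes. The RNAs were chosen by name and by level, as the entries whose name starts with Snord, Snora or Scarna and whose FPKM averaged at least 1 over the libraries. Of 44291 entries in all, 148 carried such a name and 74 reached that level, 51 of the C/D box class (Snord), 22 of the H/ACA box class (Snora) and 1 scaRNA. Since the level that selected them was measured in the same libraries that are compared, an RNA seen in only 1 library could pass only by differing, and the counts below describe the libraries and are not a test.

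The cells were wild-type primary FAPs of mouse, which per the study were sorted from hindlimb muscle. One culture was labelled as treated with platelet-rich plasma (PRP) and the other received vehicle as control, and both were in adipogenic induction medium, in which 10 µg/ml insulin, 0.25 µM dexamethasone and 0.5 mM IBMX were added to DMEM that held 20% FBS. By the study's text the treatment was exosomes from PRP of young human donors. The label, which says only PRP, is followed here. There was 1 library per group, so a difference between treatments cannot be told apart from a difference between single cultures or library preparations. The libraries held 40120843 (PRP) and 34139741 (control) reads assigned to genes. The FAP markers Pdgfra (19.8 FPKM in PRP and 28.0 in control) and Ly6a (59.9 and 66.4) were present, while of 4 satellite and muscle cell markers Pax7 and Myog were at 0 in both libraries, Myod1 was at 0 and 0.0315 and Des at 2.91 and 3.39.

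snoRNAs work as the address labels of small ribonucleoproteins in the nucleolus. C/D box RNAs are bound by fibrillarin, Nop56, Nop58 and Snu13 and direct methylation of the ribose in ribosomal RNA, while H/ACA box RNAs are bound by dyskerin, Gar1, Nhp2 and Nop10 and direct the change of uridine to pseudouridine. scaRNAs do the same for spliceosomal RNAs in the Cajal body. A few snoRNAs, such as U3, take part in cutting the ribosomal RNA precursor. Most mammalian snoRNAs are cut out of introns of host genes, many of which encode ribosomal proteins, and they carry no poly(A) tail. The libraries were made with a stranded mRNA kit, and how such a kit recovers untailed RNAs was not measured here.

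The 8 sequences that follow are those of members with a GENCODE M21 entry that had a high level or a wide difference, with Snord96a as the neighbour of Snord95. They are given 5′ to 3′ as DNA on their own strand, in the coordinates of GRCm38 (mm10). Capitals mark the letters TGATG of the C box and the last CTGA, the D box, in the C/D class, and the last ACA in the H/ACA class.

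Snord3a (U3, chr10:40258467-40258679, plus strand): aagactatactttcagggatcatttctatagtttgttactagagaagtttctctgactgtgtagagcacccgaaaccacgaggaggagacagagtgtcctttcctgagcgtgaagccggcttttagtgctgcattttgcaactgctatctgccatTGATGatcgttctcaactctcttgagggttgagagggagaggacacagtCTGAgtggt
Snord104 (chr11:106500993-106501062, plus strand): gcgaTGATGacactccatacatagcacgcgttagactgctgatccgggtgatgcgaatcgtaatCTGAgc
Snord95 (chr11:48803139-48803206, plus strand): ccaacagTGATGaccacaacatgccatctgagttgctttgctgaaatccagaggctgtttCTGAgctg
Snord96a (chr11:48802032-48802112, plus strand): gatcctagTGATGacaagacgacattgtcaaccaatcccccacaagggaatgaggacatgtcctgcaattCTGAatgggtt
Snord42b (chr11:78183056-78183124, minus strand): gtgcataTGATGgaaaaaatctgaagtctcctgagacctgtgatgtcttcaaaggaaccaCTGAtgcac
Snord66 (chr16:20684239-20684313, plus strand): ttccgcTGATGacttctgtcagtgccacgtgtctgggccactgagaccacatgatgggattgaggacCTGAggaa
Snora65 (chr2:32963291-32963420, plus strand): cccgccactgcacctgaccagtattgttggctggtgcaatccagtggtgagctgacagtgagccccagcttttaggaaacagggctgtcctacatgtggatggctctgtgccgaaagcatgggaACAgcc
Snora17 (chr2:26639190-26639321, minus strand): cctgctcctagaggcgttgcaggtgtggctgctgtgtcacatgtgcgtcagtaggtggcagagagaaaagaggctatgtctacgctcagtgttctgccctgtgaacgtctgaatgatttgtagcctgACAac

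The names were in keeping with the sequences. Among the 38 C/D box members with an M21 sequence, 33 (86.8%) held TGATG in the first 20 bases and 37 (97.4%) held CTGA in the last 20 bases. Of the 20 H/ACA box members with a sequence, 18 (90.0%) had ACA in the last 7 bases and 0 had TGATG in the first 20. Among 2202 microRNA transcripts of M21, searched on their own strand only, the shares were 2.77% for TGATG, 8.72% for CTGA and 15.3% for ACA in the same windows. In U3 the marked C box lies inside the RNA, from base 156, whereas in Snord95 and Snord96a, which share the host gene Rack1, it starts at base 8 and base 9. The C/D box members were 64 to 216 bases long and the H/ACA box members 121 to 205 bases.

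Levels were low. FPKM divides reads by length and by the total of assigned reads, and on a C/D box RNA of 70 bases a single fragment, counted as 2 mates, was worth 0.712 FPKM in PRP and 0.837 in control. The median member had 46 reads over both libraries, 24 members had under 20 reads and 33 had at least 50. The median of the mean FPKM was 5.40 over the members, beside 5.39 over the 13401 entries of the whole series that passed the same level. At the edge of the selection, Snora15 stood just inside with 1.33 FPKM in PRP and 0.671 in control, and Snord50a just outside with 0.692 and 1.22. Of the other 74 named entries, 60 were above 0 in at least 1 library and 14 were at 0 in both, among them Snord13 (U13) and the only listed member of the imprinted Snord116 family, Snord116l10.

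Outside U3, the Snord-named RNA with the highest level was Snord42b, encoded in the ribosomal protein gene Rpl23a, at 42.3 FPKM in PRP and 37.4 in control. It had 117 reads in PRP and 88 in control, which made a ratio of 1.13 with a 95% interval of 0.752 to 1.71. This interval and those below are Clopper-Pearson intervals on reads divided by 2, as the mates of a pair were counted separately. For 44 of the 74 members a library had an odd read number, which divided by 2 is not a whole fragment, so their intervals are approximate. The intervals cover counting error only, and they compare 2 libraries and not 2 treatments. Its levels could not be told apart at this depth. Snord57, which lies within Nop56, the gene of a C/D box core protein, was at 30.8 and 21.6 FPKM (ratio 1.43, 0.864 to 2.41). Snord22 of the non-coding host Snhg1 was at 28.3 and 21.6 FPKM (ratio 1.31, 0.892 to 1.94). Snord96a was at 22.8 and 17.4 FPKM (ratio 1.31, 0.764 to 2.29). These RNAs were all somewhat higher in the PRP library, with intervals that included 1. Each of them overlaps an exon of another gene, so reads of a host transcript can be among theirs.

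The Snora-named RNA with the highest level was Snora65, from Rpl12, at 38.0 FPKM in PRP and 25.01 in control. It had 198 and 111 reads, and its ratio of 1.52 had an interval of 1.08 to 2.15, which excluded 1. Snora7a of Rpl32 was at 22.8 and 15.5 FPKM (ratio 1.47, 0.967 to 2.27). Snora61 of Snhg12 was at 15.5 and 11.5 FPKM (1.35, 0.804 to 2.31), Snora2b of Kansl2 at 14.0 and 9.84 FPKM (1.42, 0.828 to 2.501) and Snora9 of Snhg15 at 14.2 and 7.27 FPKM (1.96, 1.07 to 3.73). The 5 most abundant Snora entries thus lay on the same side, and the interval of 2 of them excluded 1. All 5 overlap an exon of another gene, so reads of a host transcript can be among theirs.

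**Figure D1:**
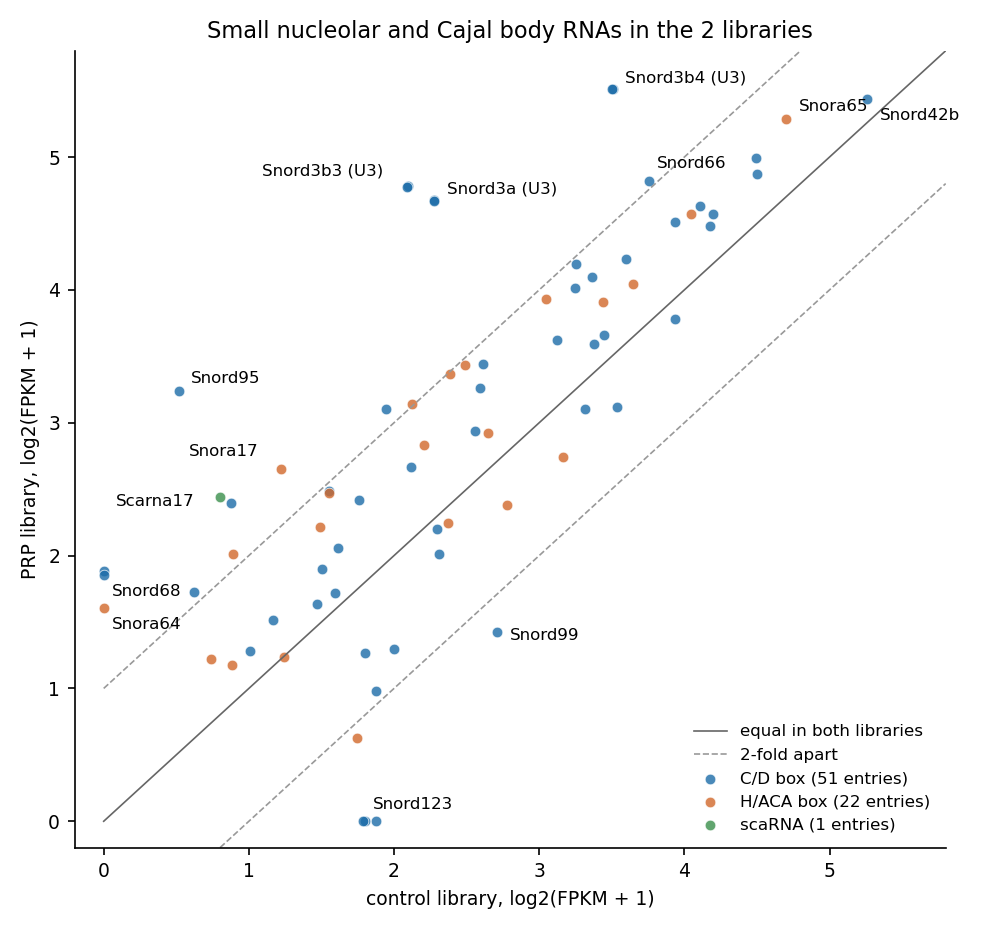
Level of each of the 74 members in the PRP library (vertical axis) against the control library (horizontal axis), both as log2(FPKM + 1), with C/D box RNAs in blue, H/ACA box RNAs in orange and the scaRNA in green. The solid line marks equal levels and the dashed lines a 2-fold difference on this scale. Of the members, 57 lie above the solid line, and the U3 entries lie far above the upper dashed line.

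On the scale of log2(FPKM + 1), 57 of the 74 members were higher in the PRP library and 17 were lower, with a median log2 fold change of 0.51. Over all 13401 entries 50.9% were higher, and the median was 0.01. At least a 2-fold difference was seen for 23 members (31.1%), 18 higher in PRP and 5 lower. Over all entries 2.83% were at least 2-fold apart, 2.00% higher and 0.828% lower. Short RNAs with few reads scatter more, so the other M21 entries of at most 250 exon bases, of which 440 passed the same level, are the closer background. Among these 14.3% were at least 2-fold apart, 52.5% were higher, and the median log2 fold change was 0.05. Of the short entries, 237 were microRNA entries, with a median of 0.05. The 440 also hold most of 72 further entries that M21 types as snoRNA or scaRNA, so this background is partly of the same kind of RNA. Those 72 had a median of 0.22, with 6 at least 2-fold higher and 3 at least 2-fold lower.

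The 2-fold count held 6 members that were at 0 in 1 library, where the size of the difference depends on the pseudocount of 1. Snora64 had 11 reads in PRP and 0 in control, Snord68 had 9 and 0, and Snord100 had 8 and 0. The lower ends of their counting intervals were 0.890, 0.670 and 0.562, so a difference was not detectable at this depth. Snord58b, Snord123 and Snord65 each had 0 reads in PRP and 6 in control, and their intervals reached up to 2.06, so no fold is given. Among the 68 members above 0 in both libraries, 54 were higher in PRP, 15 of them at least 2-fold, and 2 were at least 2-fold lower, Snord99 and Snora70. Leaving out the zeros does not remove the effect of the selection. Of the 15, Snord95, Snord104, Snord43, Snora73b and Scarna17 were under 1 FPKM in control and passed only through the PRP library. Snora70 was under 1 FPKM in PRP and passed only through the control library. Snora64, Snord68 and Snord100 were then set against 3 fragments in the control library, the most that a count of 0 allows. With Snord58b, Snord123 and Snord65 left out, the median log2 fold change was 0.50.

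Read numbers set how far a single RNA could be read. Among the 33 members with at least 50 reads, 30 were higher in PRP, 8 at least 2-fold, and 0 were at least 2-fold lower, with log2 fold changes from -0.42 to 2.69. Those 8 were the 6 entries of U3, Snord66 and Snora68, so outside U3 a 2-fold difference was rare among them. The 33 also hold Snord80 and Snora43 under a pair of identifiers each. Among the 24 members with under 20 reads, 15 were higher, 6 at least 2-fold, and 5 were at least 2-fold lower. All 5 of the members that were at least 2-fold lower in PRP were thus RNAs with under 20 reads in total. The interval of the ratio excluded 1 for 12 members, all of them higher in PRP, and for 0 on the lower side. The 12 entries were the 6 of U3, Snord95, Snord66, Snora65, Snora9, Snora17 and 1 of the pair of Snora43. They made 16.2% of the members. Snord95, at 0.431 FPKM in control, reached the selected level only through the PRP library. Among the other short entries 5.73% had an interval above 1 and 7.34% one below 1. The U3 entries are 3 sets of reads listed under a pair of identifiers each, and without them 6 of 68 members (8.82%) had an interval above 1.

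**Figure D2:**
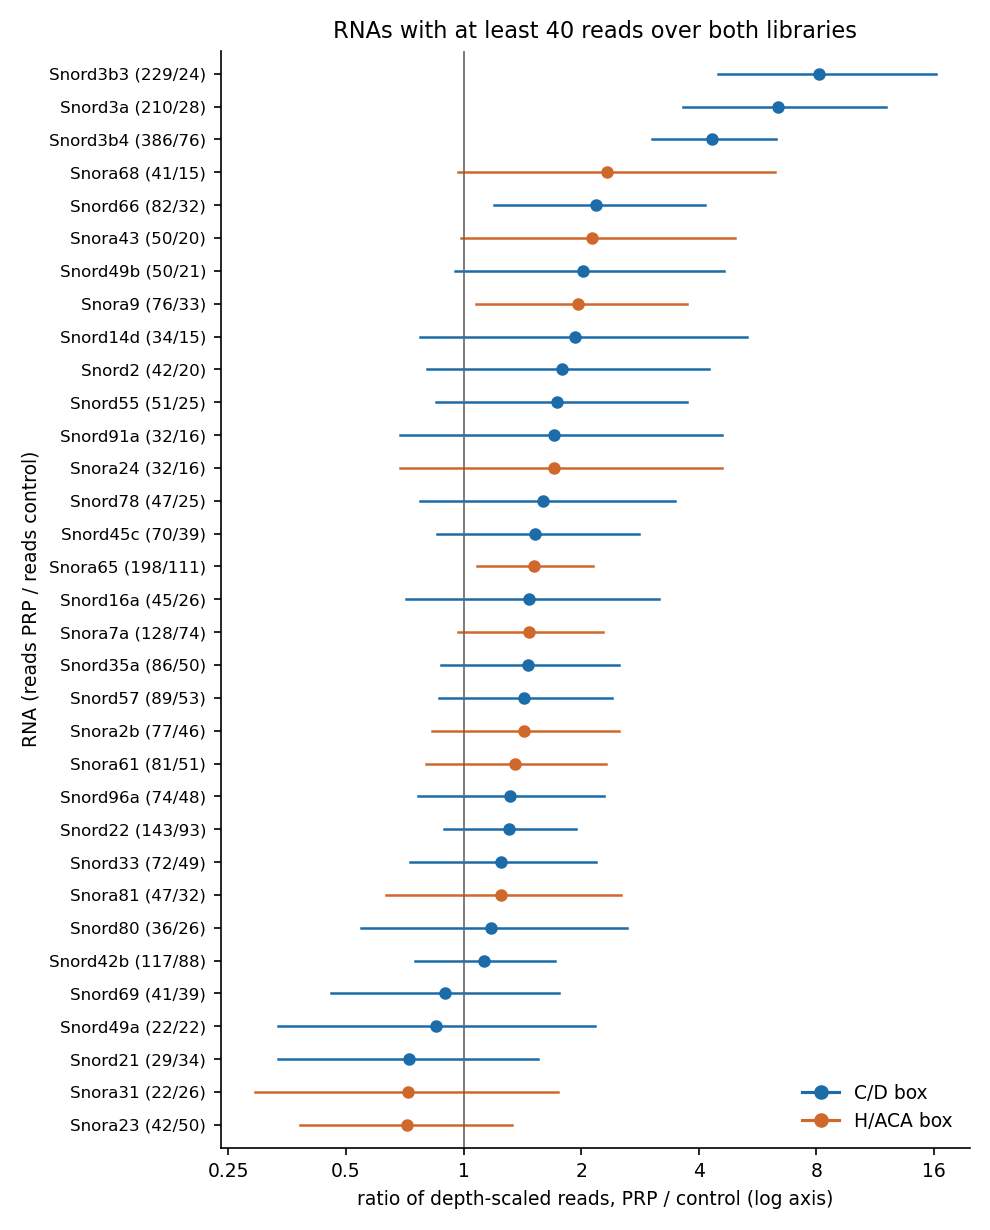
Ratio of depth-scaled reads in the PRP library to the control library on a log axis, for the 33 RNAs with at least 40 reads over both libraries (1 entry per name), with the 95% counting interval as a bar and the read numbers of both libraries after each name. Of these, 28 have a ratio above 1, the intervals of 6 lie above 1, 0 lie below it, and 27 cover it.

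The RNAs that stood apart from the rest were those of U3, the C/D box RNA that pairs with the ribosomal RNA precursor and is needed for its early cuts. Snord3a was at 24.6 FPKM in PRP and 3.85 in control, from 210 and 28 reads, a ratio of 6.38 (3.64 to 12.1). Snord3b3 was at 26.5 and 3.27 FPKM, from 229 and 24 reads, a ratio of 8.12 (4.47 to 16.2). Snord3b4 was at 44.7 and 10.4 FPKM, from 386 and 76 reads, a ratio of 4.32 (3.04 to 6.29). Among the Snord-named entries, Snord3b4 had the highest level in PRP, whereas in control it ranked below Snord42b, Snord57, Snord22 and others.

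Each of these 3 names was listed under a pair of identifiers with the same reads and lengths that differed by 1 base, so the 6 U3 entries hold 3 sets of reads. In M21 the 4 genes Rnu3b1 to Rnu3b4 were identical in sequence over 215 bases and shared 85.6% with Rnu3a. Reads inside identical copies cannot be told apart, and how they were divided between Snord3b3 and Snord3b4 is not known. The separate ratios of this pair are therefore best read together. Snord3a differs in sequence, and the sum pools it with them. Over the 3 names there were 825 reads in PRP and 128 in control, a ratio of 5.48 (4.21 to 7.25). Snord3b2, just under the selected level, had 16 reads and 0, with an interval that began at 1.45, and Snord3b1 had 2 reads and 1. Leaving the U3 entries out, 51 of the other 68 members were higher in PRP, with a median log2 fold change of 0.48, and their summed reads had a ratio of 1.41 (1.28 to 1.55). This sum, of 2356 reads in PRP and 1423 in control, depends on the choice by name and by level. It holds RNAs that passed only through the PRP library, such as Snord95, and others only through the control library, such as Snora70. Its interval covers counting error only, and the members are not replicates. The sum leaves out Gm24895, an entry that M21 types as snoRNA or scaRNA, which alone had 1018 and 1696 reads. Of the 72 further entries so typed, 49 were higher in PRP and 23 lower.

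Classes were compared by their counts and medians. Of the 51 C/D box members, 39 were higher in PRP, 13 at least 2-fold, and 4 were at least 2-fold lower, with a median log2 fold change of 0.50. Without U3 the median of the other 45 was 0.38, and 33 were higher. Of the 22 H/ACA box members, 17 were higher, 4 at least 2-fold, 1 was at least 2-fold lower, and the median was 0.56. For H/ACA box RNAs the summed reads, with 1 entry per name, gave a ratio of 1.47 (1.27 to 1.72). For C/D box RNAs without U3 it was 1.36 (1.204 to 1.53). These sums hold RNAs that passed the selected level only through the PRP library, such as Snora64 and Snord95. They also hold RNAs that passed only through the control library, such as Snora70 and Snord58b. The sums pool different RNAs, which are not replicates, and their intervals cover counting error only. The intervals of these classes overlapped, so the classes could not be told apart once U3 was left out. With U3 the ratio for the C/D box class was 1.88 (1.69 to 2.10).

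The only scaRNA at the selected level was Scarna17, which rests on 14 reads in PRP and 2 in control, or 4.42 and 0.742 FPKM, a ratio of 5.96 (0.765 to 268). The interval included 1. Scarna2, with 22 and 8 reads, stood just below the level at 1.32 and 0.566 FPKM (ratio 2.34, 0.693 to 10.1). The other 8 scaRNA entries, Scarna3a, Scarna3b under a pair of identifiers, Scarna6, Scarna8, Scarna9, Scarna10 and Scarna13, had at most 4 reads in either library, and both Scarna3b entries had none. A difference in scaRNAs as a class was therefore not detectable at this depth.

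The other C/D box RNAs at the top of the differences were thinly covered. Snord95 was at 8.43 FPKM in PRP and 0.431 in control, but from 23 reads and 1 read, and its ratio of 19.6 had an interval of 1.74 to 21232. Its neighbour Snord96a in the same host had 74 and 48 reads. Snord66, from the translation factor gene Eif4g1, was better covered, at 27.3 and 12.5 FPKM from 82 and 32 reads, a ratio of 2.18 (1.197 to 4.16), while Eif4g1 itself was at 130 and 161 FPKM. Snord104 had 12 and 2 reads (5.11, 0.619 to 235) and Snord50b had 22 and 7 (2.67, 0.753 to 12.9). Snord43 of Rpl3 had 10 and 2 reads. Of these, Snord95 and Snord66 had intervals that excluded 1.

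Among H/ACA box RNAs, Snora17 was at 5.29 FPKM in PRP and 1.33 in control from 28 and 6 reads, a ratio of 3.97 (1.11 to 21.6). Snora43, which lies beside it in the genome and is listed under a pair of overlapping entries, had 50 and 20 reads in one entry (2.13, 0.987 to 4.96) and 52 and 20 in the other (2.21, 1.03 to 5.14). Its call therefore turned on 2 reads. Snora73b, one of the pair of RNAs in Snhg3 and of the U17 family, which acts in cutting the ribosomal RNA precursor, had 25 and 6 reads (3.55, 0.966 to 19.5), whereas its partner Snora73a, under the selected level, had 7 and 6.

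RNAs lower in the PRP library were few and thin. Snord99, in the host Snhg12, had 5 reads in PRP and 14 in control, or 1.68 and 5.54 FPKM (ratio 0.304, 0.0415 to 1.44). Snora70 of Rpl10 had 3 and 11 reads (0.232, 0.0137 to 1.56). Snord47 of Gas5 had 3 and 7 reads, and Snord94 of Ptcd3 had 8 and 14. Better covered RNAs on this side were Snora23 of Ipo7, with 42 and 50 reads (0.715, 0.380 to 1.33), Snord69 of Gnl3, with 41 and 39 (0.895, 0.457 to 1.76), and Snord21 of Rpl5, with 29 and 34 (0.726, 0.334 to 1.55). The interval included 1 for each of these RNAs.

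Most of these RNAs lie within host genes, and some hosts hold a group of them. A host was found for 61 members in 44 genes, by M21 coordinates for 53 of them and by RefSeq position, without strand, for the others. Of the 44 hosts, 36 were higher in PRP and 8 were lower, 2 of them at least 2-fold higher, and their median log2 fold change was 0.12 beside 0.40 for the members inside them. A member was above its host in 35 of the 61 cases and below it in 26. The host's ratio lay inside the member's counting interval in 57 of the 61, and the 4 exceptions were Snord95 and Snord66 above their hosts and Snora61 and Snord99 below. That count says little about agreement, since many intervals were wide, such as 0.0137 to 1.56 for Snora70. In addition, 33 of the 61 overlapped an exon of another gene and can share its reads. The 22 members in 17 ribosomal protein genes had a median of 0.47, with 18 higher in PRP, while the median of those 17 host genes was 0.05. In Gas5 and the Snhg genes, 7 of 11 members were higher, with a median of 0.37.

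A pair of coding hosts held families of C/D box RNAs. Rpl13a was at 368 FPKM in PRP and 369 in control, and its 4 C/D box RNAs were all higher in PRP. Snord35a had 86 and 50 reads, Snord33 had 72 and 49, Snord34 had 15 and 8, and Snord32a had 7 and 5. Together they gave a ratio of 1.37 (0.969 to 1.94), which included 1. In Hspa8, a chaperone gene at 710 and 707 FPKM, Snord14c, Snord14d and Snord14e had 15 and 7, 34 and 15, and 24 and 15 reads. In both hosts the RNAs were on the higher side while the host was level, with intervals that included 1.

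Among the non-coding hosts, Gas5 was at 83.6 FPKM in PRP and 46.7 in control. Its Snord78 had 47 and 25 reads, Snord80 had 36 and 26 under a pair of identifiers, and Snord47 had 3 and 7, which together gave a ratio of 1.26 (0.770 to 2.10) beside 1.79 for Gas5. Snhg12 was at 22.8 and 8.88 FPKM, a ratio of 2.57, whereas its Snora61 had a ratio of 1.35, Snora44 had 7 and 6 reads and Snord99 had 5 and 14. For Snora61 and Snord99 the ratio of the host lay above the RNA's own interval. Snord22 was the only RNA of the Snhg1 group at the selected level, at a ratio of 1.31 beside 1.61 for Snhg1.

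Further hosts carried RNAs of unlike read numbers. The non-coding 2410006H16Rik was at 45.3 FPKM in PRP and 24.7 in control, and its Snord49b had 50 and 21 reads (2.03, 0.951 to 4.64), its Snord49a 22 and 22 (0.851, 0.335 to 2.16) and its Snord65 0 and 6. Gnl3, which encodes nucleostemin, a GTP-binding nucleolar protein, was at 31.6 and 18.5 FPKM, while its Snord69 had 41 and 39 reads and its Snord19 had 14 and 5. The translation factor gene Eif4a2, at 39.8 and 32.6 FPKM, held 1 RNA of each class, Snord2 with 42 and 20 reads and the H/ACA box RNA Snora81 with 47 and 32. In Zfas1, at 8.06 and 3.62 FPKM, Snord12 had 13 and 12 reads. The intervals of these RNAs all included 1, and those of RNAs in 1 host overlapped.

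Several RNAs of middle level were the only members of their host at the selected level. Snord45c of Rabggtb had 70 reads in PRP and 39 in control (1.53, 0.854 to 2.81), and Snord16a of Rpl4 had 45 and 26 (1.47, 0.713 to 3.17). Snord91a of Tsr1, a gene for a factor in making the small ribosomal subunit, and Snora24 of Snhg8 both had 32 and 16 reads (1.70, 0.687 to 4.59). Snora26 of Dancr had 22 and 8 reads, and Snora30, in Srcap, had 19 and 8. Level or on the other side were Snora75 of the nucleolin gene Ncl, with 20 and 19 reads (0.896, 0.331 to 2.44), and Snora31 of Tpt1, with 22 and 26 (0.720, 0.292 to 1.74). The interval included 1 for each of these 8 RNAs, so their order among themselves could not be set.

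**Figure D3:**
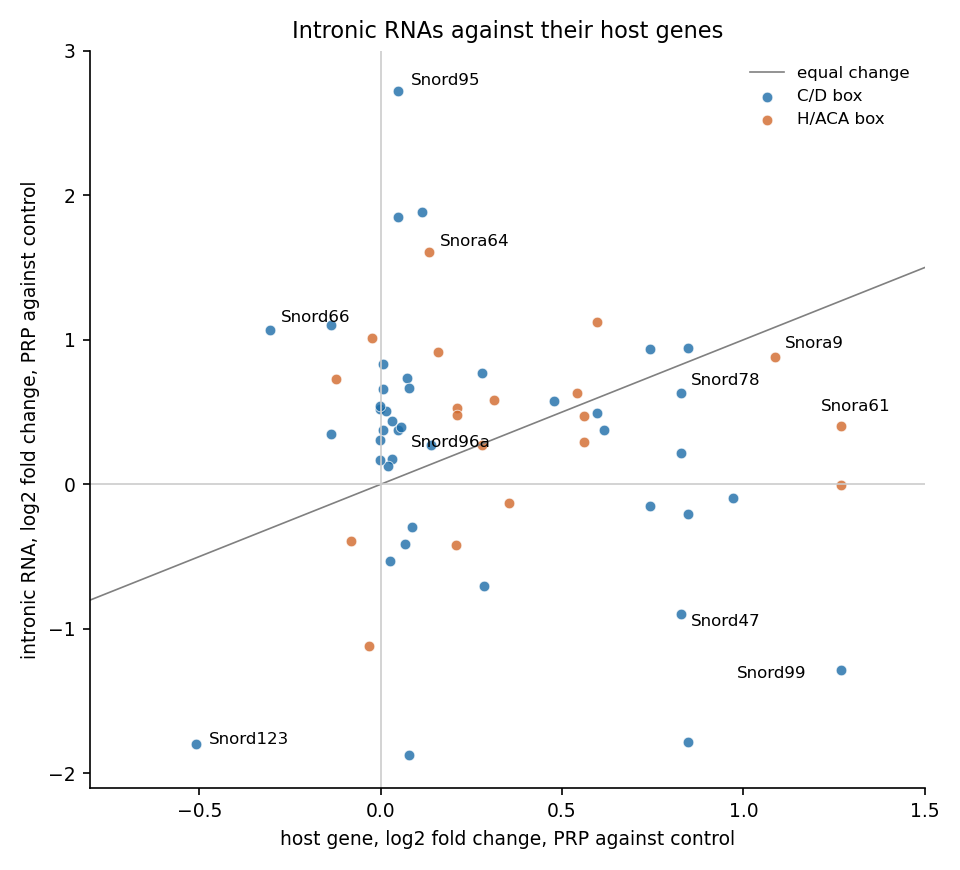
Log2 fold change of each of the 61 members with a host (vertical axis) against that of its host gene (horizontal axis), PRP against control on the log2(FPKM + 1) scale, with C/D box RNAs in blue and H/ACA box RNAs in orange. The grey diagonal marks an equal change, and 35 members lie above it and 26 below. Of the 61, 33 overlap an exon of another gene and can share its reads.

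Position also differed between the RNAs, a grouping made after their values were seen. Of the members with an M21 entry, 20 lay inside an intron of a host on the same strand, 33 overlapped an exon of some transcript of another gene, 28 of these over their whole length, and 6 had no spanning gene. Reads that fall on such an exon can come from the host transcript, since overlapping entries were given the same reads. The intronic group had a median log2 fold change of 0.37, with 12 of 20 higher, and the exon group 0.47, with 25 of 33 higher. By summed reads the ratios were 1.24 (0.998 to 1.55) and 1.41 (1.26 to 1.58). Both sums pool different RNAs, some of which passed the selected level only through 1 library. The intervals overlapped, and that of the intronic group included 1.

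The 6 entries with no spanning M21 gene were Snord3a, Snord104, Scarna17, Snora17 and the pair of Snora43, and all 6 were higher in PRP. Their median log2 fold change was 1.48, and by summed reads the ratio was 4.61 (3.09 to 7.10), or 2.95 (1.64 to 5.64) without U3. Of these RNAs, Snord104 and Scarna17 were under 1 FPKM in the control library and passed the selected level only through the PRP library, so the ratio is a description of RNAs that partly had to differ. A newer annotation may place some of them in a host, and the table lists Snhg7, at 2.66 and 1.75 FPKM, under an identifier that M21 lacks. The U8 RNA Snord118, which has no spanning gene and acts in making the large ribosomal subunit, was under the selected level with 8 reads in PRP and 0 in control.

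**Figure D4:**
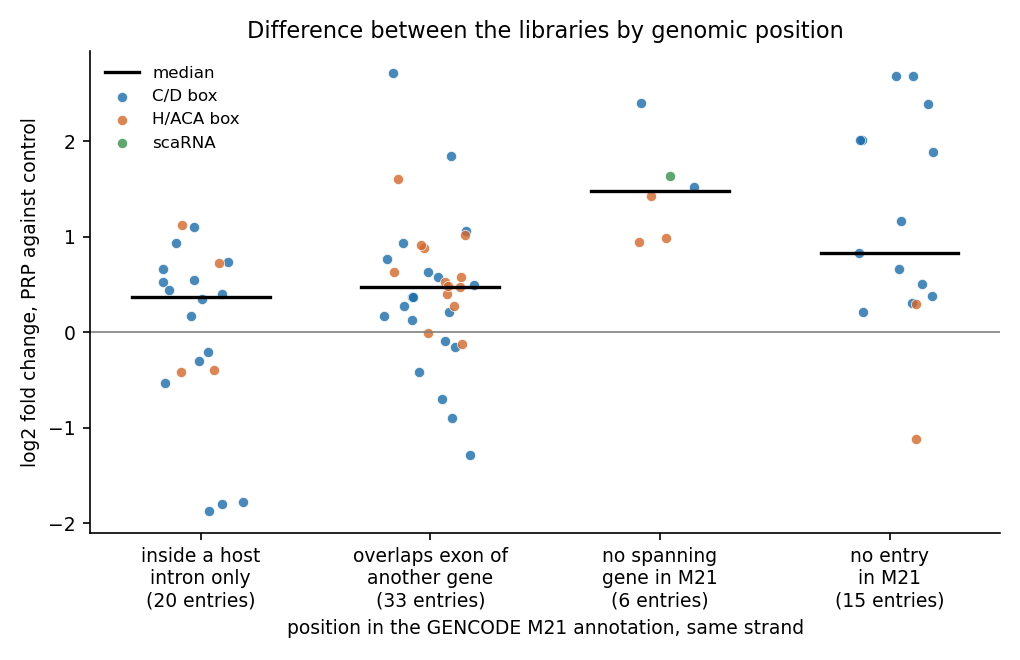
Log2 fold change of the 74 members, PRP against control on the log2(FPKM + 1) scale, split by position in GENCODE M21, with the median of each group as a black bar (points are spread sideways for legibility only). The medians are 0.37 inside host introns, 0.47 over exons of another gene, 1.48 with no spanning gene and 0.83 for the 15 entries without an M21 record, 5 of which are U3 entries.

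The partner proteins of these RNAs were described from lists that were chosen with earlier results known. All 4 C/D box core proteins were higher in PRP, with a median log2 fold change of 0.49. Nop58 was at 20.5 FPKM in PRP and 12.4 in control, Nop56 at 35.5 and 23.2, the methyltransferase Fbl at 33.1 and 24.998, and Snu13 at 3.54 and 3.13. The counting interval excluded 1 for 3 of the 4. All 4 H/ACA box core proteins were higher too, with a median of 0.50 and all 4 intervals above 1. At the depth of mRNAs an interval excludes 1 at small differences, and of the 12384 entries with whole reads 26.2% had an interval above 1 and 26% one below 1. Gar1 was at 26.5 and 15.2 FPKM, the pseudouridine synthase Dkc1 at 12.7 and 8.29, Nhp2 at 40.9 and 31.5, and Nop10 at 6.43 and 4.49. These are mRNAs with many reads, and their differences were under 2-fold.

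Of 15 genes for assembly, transport and 3′ trimming of these particles, 12 were higher, with a median of 0.19, where 50.9% of all entries were higher. The interval lay above 1 for 9 of the 15 and below 1 for 1. Phax, Znhit3 and Zcchc8, counted as higher, had intervals that included 1. The nuclear poly(A) polymerase Tent4b, which helps to trim and clear such RNAs, was at 20.3 and 9.80 FPKM, the assembly ATPase Ruvbl1 at 70.2 and 47.3, and the H/ACA assembly factor Naf1 at 4.83 and 3.07. Znhit6, a C/D box assembly factor, was at 182 and 223 FPKM. Of 8 Cajal body and nucleolar genes, 7 were higher, with a median of 0.36. Coil, which encodes the Cajal body scaffold coilin, was the exception at 7.56 and 7.78, and Npm1 was at 835 and 582. Of 15 entries of non-coding host genes, 13 were higher, with a median of 0.59, and Snhg5 was at 13.6 and 4.95 FPKM.

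Several other RNAs that carry no poly(A) tail were also higher in PRP. The 7SK RNA Rn7sk was at 9.34 FPKM in PRP and 1.95 in control, the RNA of RNase P, Rpph1, at 9.69 and 2.57, and the signal recognition particle RNAs Rn7s1 and Rn7s2 at 294 and 116 and at 76.1 and 21.9. The ribosomal RNA-like entry Rn18s-rs5 was at 8090 and 3318 FPKM. The last 3 belong to a list added after values were seen. Of its 9 entries at the level studied, 7 were higher in PRP and 2 lower. Those lower were n-R5s185, with 4 and 6 reads, and Rn7s6, with 10 and 12, and both intervals included 1. In the same list mt-Rnr1 was at 191 FPKM in PRP and 134 in control, and mt-Rnr2 at 139 and 129. The size of the difference thus varied between these RNAs. The Y RNA Rny3, at 1.47 and 2.30 FPKM, had 6 and 8 reads. Its interval of 0.0935 to 3.77 included 1, so its direction was not set. The 20 replication-dependent histone genes at the level studied had a median log2 fold change of 0.05, with 13 higher. The 12 entries of spliceosomal RNAs were at most 1.31 FPKM in either library. The part of the overall content of untailed or ribosomal RNA in the differences of snoRNAs was not tested, and with 1 library per group it cannot be told apart from the treatment.

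**Figure D5:**
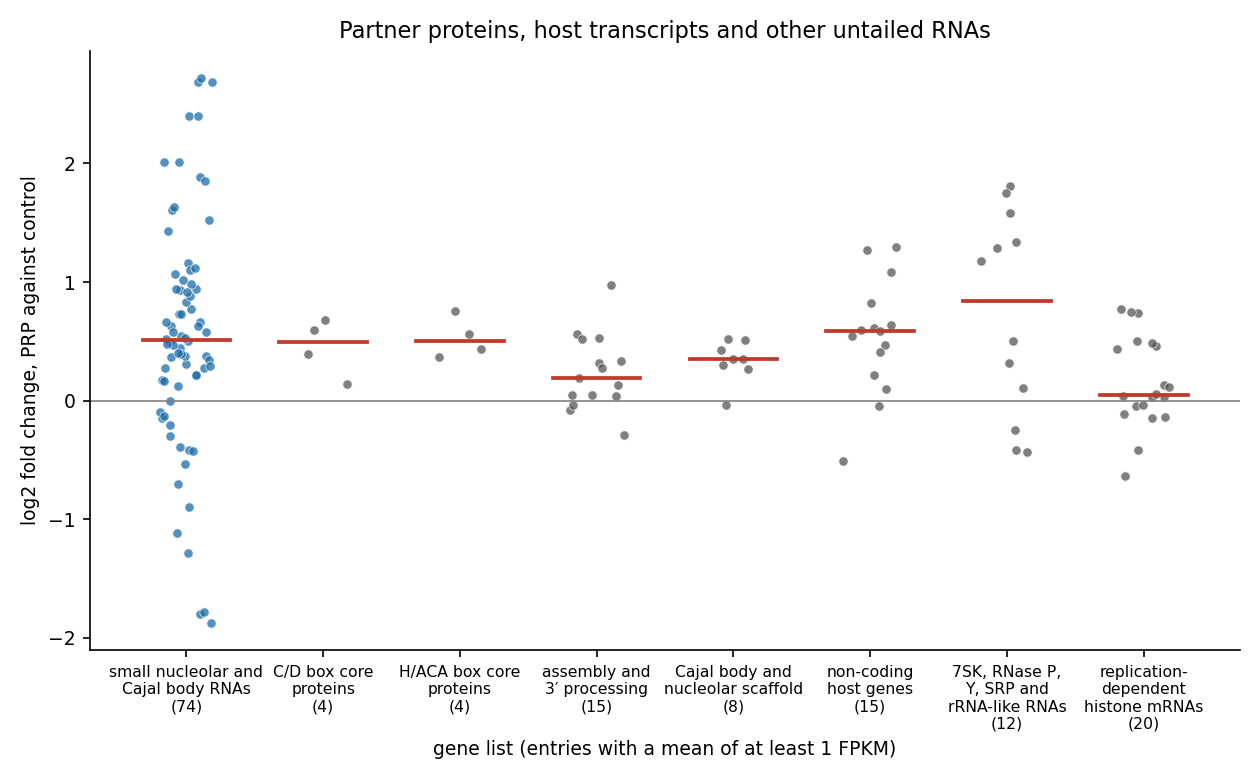
Log2 fold change, PRP against control on the log2(FPKM + 1) scale, of the 74 members (blue) and of listed genes with a mean of at least 1 FPKM (grey), with the median of each list as a red bar and the number of entries under each name. The medians are 0.51 for the members, 0.49 and 0.50 for the core proteins of the C/D and H/ACA box particles, 0.59 for the non-coding hosts and 0.05 for the histone mRNAs, and the other untailed RNAs range from -0.43 to 1.81.

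Markers of other cell types were mostly low. In bulk RNA, fewer cells of a type and less RNA per cell cannot be told apart. The 3 leukocyte markers summed to 4.60 FPKM in PRP and 2.38 in control, the 3 endothelial markers to 4.51 and 1.64, and the 3 platelet markers to 0.636 and 0.365. The leukocyte markers Ptprc and Adgre1 were at most 0.0543 FPKM in either library, and Cd68 was at 4.56 in PRP and 2.31 in control. The endothelial markers Pecam1 and Cdh5 were at most 0.188 FPKM, while Kdr was at 4.23 and 1.499. Of the platelet markers, Ppbp was at 0 in both libraries, Pf4 at 0.0691 and 0, and Itga2b at 0.567 and 0.365. All 6 FAP markers were lower in PRP, among them Dpt at 18.8 and 50.2 and Col1a1 at 119 and 219 FPKM. Of the 4 adipocyte markers 3 were higher, with Fabp4 at 40.7 and 33.6. The part of cell composition in the differences of snoRNAs was not tested.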

How the data were processed

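RNA-seq was compared between 1 library of FAPs labelled PRP and 1 labelled control. TRIzol was used for extraction and a stranded mRNA kit for library construction, per the labels. Per the submitters' processing notes and the study's methods, reads were trimmed with fastp 0.23.4, aligned to mm10 with STAR 2.5.3a and counted with featureCounts. The deposited values are FPKM as the authors computed them, and the annotation release is not given in the sources used here.

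Entries were matched by identifier to GENCODE M21, which held 59 of the 74 members, and to RefSeq (GRCm38.p6) by name for the position of others. FPKM multiplied by M21 exon length and library total gave whole reads, within 0.001, for 106 of 106 named entries above 0 with an M21 length (93.6% of all genes above 0 in both libraries). For 15 members without an M21 entry, the length nearest to the RefSeq or same-name length, within 20 bases, that gave whole reads in both libraries was inferred. The reads served for depth and intervals only.

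Differences are log2(FPKM + 1) of PRP minus control, which understates the change of low RNAs. No test was possible with 1 library per group, and no p-value is given. Intervals are Clopper-Pearson at 95% on reads divided by 2, since mates were counted separately, and ignore PCR duplicates. Simulated data were used to check the recovery of reads and the intervals. The host is the spanning gene, Gas5 or Snhg genes first.

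The members and all lists were chosen with earlier results of these data known. RNAs were named by a rule: in each class the 5 highest by mean FPKM and the 5 highest and 5 lowest by log2 fold change, plus host families, U3, U8, U13, imprinted and repeated names. Single RNAs beyond that were chosen after their values were seen. Alternatives were other pseudocounts, scalings, filters and fold thresholds. Calculations used Python 3.11.15, pandas 2.3.3, SciPy 1.17.1 and Biopython 1.88.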

Additional observations from a re-analysis of the deposited data

How the results depend on the processing

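No paired analysis was possible because neither group holds more than 1 library, and none could be left out. The number of members at least 2-fold apart, 23 as reported, was 7 with a pseudocount of 5, 9 of 39 with a mean of at least 5 FPKM, 12 of 50 with at least 10 fragments, 39 at a 1.5-fold threshold, 7 at 4-fold and 12 by an interval that excludes no change. The number higher in PRP, 57 of 74, was 91 of 134 with no filter, 34 of 39 with a mean of at least 5 FPKM and, in an alternative chosen after seeing the data, 32 of 41 without members that overlap exons of another gene. A larger pseudocount shrinks every difference, and the other counts rest on fewer or more entries or on another threshold. The median log2 fold change of 0.51 was 0.35 with a pseudocount of 5. A pseudocount cannot change a direction, and the scalings moved the median of all genes only to -0.01 and -0.02, so they say little about stability. Of 195 values of the 39 named members under these alternatives, 191 stayed within their counting interval and 4, the entries of Snord3a and Snord3b3 with a pseudocount of 5, fell outside it, in the same direction. Few reads per RNA limit all single values.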

Other observations

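M21 types 72 further entries at a mean of at least 1 FPKM as snoRNA or scaRNA under Gm names, which the choice by name left out. Of these 49 were higher in the PRP library and 23 lower, 6 and 3 by 2-fold or more, and the median log2 fold change was 0.22. The most abundant, Gm24895, was at 343 FPKM in PRP and 671 in control, from 1018 and 1696 reads, which is more reads than any named member had and in the direction opposite to most. The next, Gm22357, was at 137 and 96.3 FPKM from 457 and 273 reads, and Gm22489 was at 66.3 and 47.2 FPKM from 165 and 100 reads.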
